A study of Rattus norvegicus with 6 samples.

Results

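The miR-379 to miR-410 cluster is a long run of miRNA hairpins in the imprinted Dlk1-Dio3 region, and its mature products were followed here in cultured rat cortical neurons. Members were chosen by name alone, as every listed mature miRNA whose number belongs to the cluster, both arms included. This gave 66 of the 649 mature miRNAs listed, from 32 of the 34 hairpin numbers of the rule. MiR-134, which lies in the same cluster, was left out by the rule. The neurons came from embryonic day 18 Sprague-Dawley rats and were kept for 7 days in vitro (DIV) by the sample labels, while a figure legend has 6 DIV. BDNF, a neurotrophin that promotes dendrite growth, was given to 3 cultures at 100 ng/ml for 20 min. The 3 control cultures received the vehicle, 0.1% BSA, for the same time. Total RNA was made into small RNA libraries, and the methods call the 3 libraries of each condition biological replicates.

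Genes of the Dlk1-Dio3 region are expressed from only one parental chromosome, and the non-coding RNAs of the region, the miRNAs among them, come from the maternal one. The hairpins of the cluster are cut by Drosha from long non-coding transcripts, then by Dicer into a duplex whose arms are named 5p and 3p. Argonaute usually keeps one arm, the guide, and bases 2 to 8 of that arm, the seed, pair with target mRNAs. The cluster is best known in brain, where neuronal activity and the transcription factor Mef2 can raise its transcription and where several of its miRNAs act on dendrite and synapse growth.

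RefSeq mature sequences were found for 64 of the 66 members, all but miR-679 and miR-3072. Of these, 62 lay on the plus strand of rat chromosome 6, at chr6:134543460-134579828 in build GRCr8, a stretch of 36.4 kb from the first base of miR-379-5p to the last base of miR-410-3p. The other 2 were the arms of miR-299b, read from the opposite strand of the miR-299a hairpin. The RefSeq gene table has uncharacterized long non-coding RNA genes over the same stretch. Of the 5 most abundant arms, 3 are shown first, with the seed in capitals, because they stand for the guides these neurons hold most of, and the other 2, miR-300-3p and miR-381-3p, follow.
miR-323-3p: cACAUUACacggucgaccucu
miR-379-5p: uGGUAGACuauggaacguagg
miR-541-5p: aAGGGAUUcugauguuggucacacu

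The next 3 carry nearly the same seed and are shown because they bear on how reads were assigned. MiR-381-3p and miR-539-3p have the same seed, AUACAAG, which no other listed miRNA with a sequence has.
miR-300-3p: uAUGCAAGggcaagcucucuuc
miR-381-3p: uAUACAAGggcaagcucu
miR-539-3p: cAUACAAGgguaauuucuuuuc
Over the 18 bases of miR-381-3p, miR-300-3p differs only by G4A, counted from the 5′ end. The aligner accepted 1 mismatch, and it is not stated how a read that matches more than one miRNA was counted. Adenosine-to-inosine editing inside the seed of miR-381-3p is known from brain, and sequencing reads inosine as G. An edited miR-381-3p and a miR-300-3p of that length cannot be told apart in these counts.

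The members with an unadjusted P below 0.05 in at least one of the fits described further down had the following sequences, again with the seed in capitals. The first 5 were lower and the last 3 higher in BDNF libraries.
miR-410-3p: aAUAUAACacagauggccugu
miR-487b-3p: aAUCGUACagggucauccacuu
miR-539-5p: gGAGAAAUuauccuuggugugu
miR-376c-3p: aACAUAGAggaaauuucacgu
miR-329-3p: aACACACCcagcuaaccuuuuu
miR-376a-3p: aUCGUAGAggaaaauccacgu
miR-668: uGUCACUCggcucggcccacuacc
miR-543-3p: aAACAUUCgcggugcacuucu
No seed was shared among these 8. Outside the cluster, the seed of miR-410-3p also occurs in miR-344b-1-3p and that of miR-329-3p in miR-362-3p. The members with lower values in BDNF therefore had no seed in common with each other or with those that had higher values.

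Part of the cluster is thought to be built from repeated hairpins. Some of its mature sequences share short words, and whether these stem from repeated hairpins was not tested. The word GGUCCA, in capitals in the following lines, occurs in 5 of the 64 members (7.81%) and in none of the 519 other listed miRNAs with a sequence. It was picked after searching these sequences for frequent words of 6 bases, so its share is a description only.
miR-379-3p: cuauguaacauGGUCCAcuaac
miR-380-3p: uauguaguauGGUCCAcaucu
miR-411-3p: uauguaacacGGUCCAcuaa
miR-412-3p: cuucaccuGGUCCAcuagccgu
miR-758-3p: uuugugaccuGGUCCAcuaacc
MiR-379-3p and miR-411-3p differ only by U11C over the 20 bases compared, with an offset of 1 base. A mature sequence of the cluster started with A in 48.4% of members and in 26.6% of the other listed miRNAs, and with U in 29.7% and 38.5%.

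The libraries held between 10374120 and 12533029 counts, so that 10 reads per 1000000 counts (RPM) stood for 103.7 to 125.3 reads. Of the neuronal miRNAs looked up, miR-9a-5p was at 249572 to 331060 RPM, miR-128-3p at 75697 to 88885 RPM and miR-124-3p at 4785 to 5879 RPM. MiR-138-5p, from the same list, was much lower, at 228 to 424 RPM. MiR-21-5p, common in glia, was at 5571 to 7480 RPM. Markers of oligodendrocytes summed to 31.3 to 37.6 RPM, of microglia and blood to 5.14 to 9.93 RPM, of endothelium to 72.0 to 100.9 RPM and of muscle to 10.9 to 17.4 RPM. Fewer cells of a type and less RNA per cell cannot be told apart in such bulk samples.

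All 66 members together took 1.66 to 1.91% of the counts of a library. They summed to 18838.8, 16626.1 and 19074.4 RPM in control replicates 1 to 3 and to 17374.7, 17331.8 and 18943.6 RPM in BDNF replicates 1 to 3. The range of the BDNF libraries lay inside that of the control libraries. After scaling by the TMM factors of edgeR, which correct for differences in composition between libraries (normalized RPM in what follows), the sum was 18014 ± 832 in control and 18018 ± 648 in BDNF (SD, n = 3 each). The ratios of BDNF to control within replicate numbers 1 to 3 were 0.988, 1.02 and 0.99. On that scale the summed output of the cluster differed by less than 3% in each pair. In RPM without the TMM factors the ratios were 0.922, 1.04 and 0.993.

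The cluster's output was very uneven. The leading member, miR-323-3p, held 12.6% of the summed mean RPM, the top 5 held 52.9% and the top 15 held 87.0%. Mean RPM over the 6 libraries was 2266 for miR-323-3p, 2081 for miR-379-5p, 2030 for miR-300-3p, 1708 for miR-541-5p and 1452 for miR-381-3p. Then came miR-382-5p at 922 RPM, miR-409a-3p at 867 RPM, miR-411-5p at 781 RPM, miR-382-3p at 769 RPM and miR-543-3p at 656 RPM. Neighbours in this order often overlapped in their values over libraries. MiR-323-3p, for example, ranged from 2006 to 2533 RPM and miR-379-5p from 1945 to 2223 RPM. In all, 26 members had at least 100 RPM and 9 had less than 1 RPM, and 5 members had a count of 0 in at least 1 library.

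Level changed sharply from one hairpin to the next along the locus. MiR-300-3p, at 2030 RPM, and miR-376a-3p, at 28.1 RPM, start 16508 and 15961 bases downstream of the start of miR-379-5p, within the same stretch of hairpins. The ends of the cluster held abundant arms, miR-379-5p at its start and miR-541-5p, miR-409a-3p and miR-410-3p near its end. The miR-376 hairpins, known in brain as substrates of adenosine-to-inosine editing, gave 168 RPM of miR-376b-3p but 22.4 RPM of miR-376c-3p and 28.1 RPM of miR-376a-3p.

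**Figure D1:**
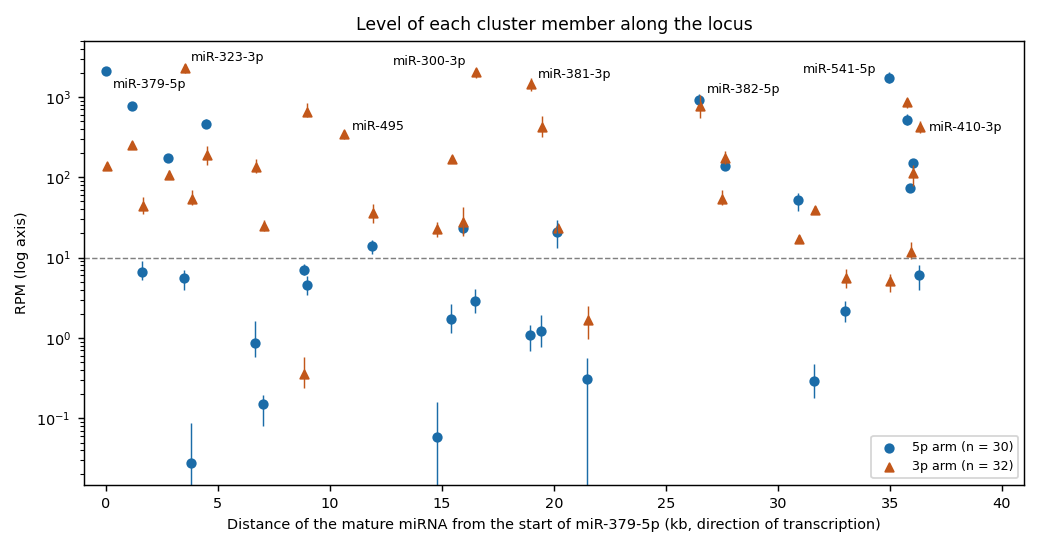
Mean RPM over 6 libraries (log axis) of the 62 members on the plus strand against the distance of the mature miRNA from the start of miR-379-5p in kb, with 5p arms as circles and 3p arms as triangles. Vertical lines span the lowest and highest library and reach the lower edge where a library had a count of 0, and the dashed line marks 10 RPM; arms of one hairpin sit side by side and often differ by more than 10-fold.

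For the comparison of conditions, only miRNAs that averaged 10 RPM or more in control or in BDNF entered the fit, as the filter of the study asks. This kept 42 of the 66 members (63.6%) and 336 of all 649 miRNAs (51.8%). The 24 members below the filter, the highest of which had 7.05 RPM, summed to 57.9 RPM and were not tested. The test was edgeR's quasi-likelihood test on counts, and the unadjusted threshold of P below 0.05 is the study's. Over all miRNAs tested, a control and a BDNF library that carry the same number deviated alike, so the fit with that number as a block is given beside the one without it. With 3 libraries against 3, an exact permutation test cannot go below P = 0.1.

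Without the block, 1 of 42 members had P below 0.05 and lower values in BDNF, against 1.49% of all miRNAs tested, and 0 members had higher values, against 1.49%. With the block, the counts were 5 lower (11.9% of members, against 12.8% of all tested) and 3 higher (7.14%, against 7.74%). The members were thus called about as often as other miRNAs in either fit. After Benjamini-Hochberg adjustment 0 members passed 0.05 in either fit of edgeR's quasi-likelihood test, and the share over all miRNAs was 0% without the block and 0% with it. The smallest adjusted P-value of a member was 0.999 without the block and 0.133 with it. The median log2 fold change (BDNF/control) of the 42 members was -0.037, with 29 of 42 below 0 (69.0%). Over all 336 miRNAs it was -0.0015, with 171 below 0 (50.9%).

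**Figure D2:**
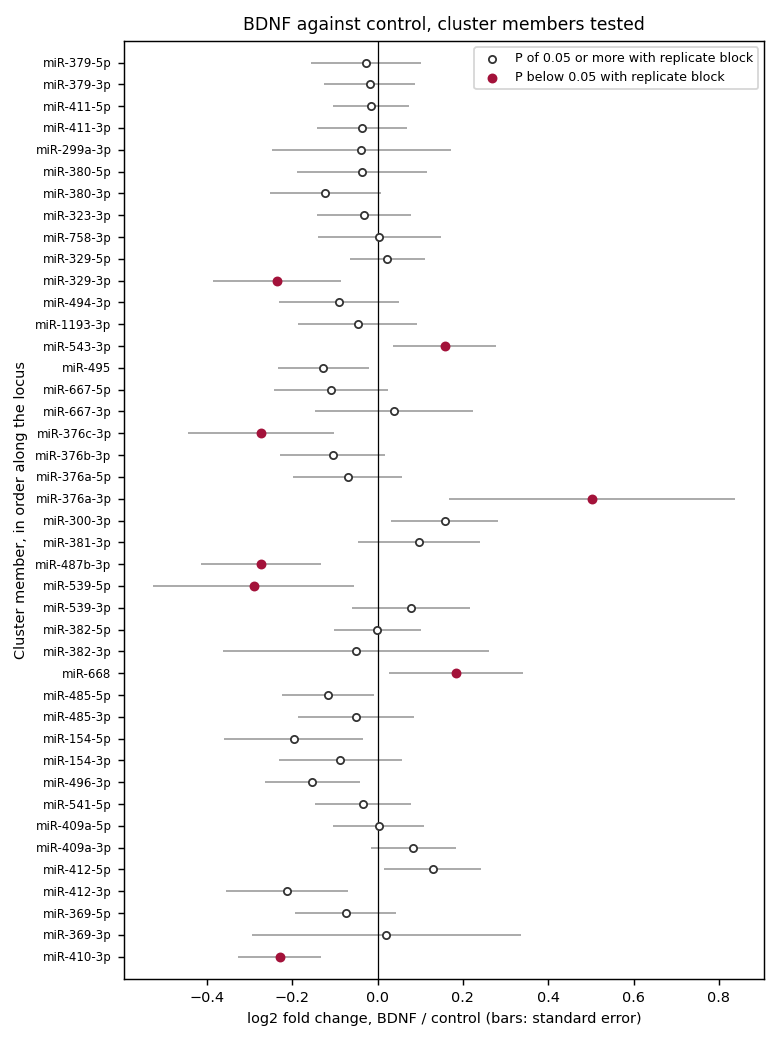
Log2 fold change (BDNF/control) from edgeR without the block for the 42 members tested, in order along the locus, with bars for the standard error. Filled points mark the 8 members with an unadjusted P below 0.05 with the replicate block; values run from -0.29 to 0.50, and most points lie within a standard error of 0.

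MiR-410-3p, the last miRNA of the cluster, was the one member past the threshold without the block. It was at 417, 469 and 464 normalized RPM in control replicates 1 to 3 and at 407, 370 and 374 in BDNF replicates 1 to 3. All BDNF libraries lay below all control libraries, with the first pair close together. The log2 difference was -0.23 (standard error 0.096), giving an unadjusted P of 0.0496 and an adjusted P of 0.999 in edgeR's quasi-likelihood test. With the replicate block the unadjusted P was 0.020 and the adjusted P 0.173. The call held in DESeq2 (unadjusted P of 0.032) and without control replicate 1 (unadjusted P of 0.030). It was lost in 9 of the 12 alternatives tried, among them each of the other 5 ways of leaving out 1 library, with unadjusted P up to 0.150 and lower values in BDNF throughout.

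MiR-487b-3p was at 390, 469 and 529 normalized RPM in control and at 341, 393 and 415 in BDNF. Each BDNF library lay below its own control library, while the 2 groups overlapped. The ratios within replicate numbers were 0.874, 0.838 and 0.784. In edgeR the log2 fold change was -0.27 in both fits. Its standard error fell from 0.14 to 0.067 with the block, and the unadjusted P from 0.096 to 0.0040 (adjusted P = 0.133).

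MiR-539-5p, made from the hairpin just downstream of miR-487b, was at 17.3, 24.2 and 27.6 normalized RPM in control and at 14.2, 19.6 and 22.6 in BDNF. Its ratios within replicate numbers, 0.823, 0.809 and 0.821, were nearly equal, although its level differed by more than that between replicate numbers. The block took the unadjusted P from 0.259 to 0.012 (adjusted P = 0.166, edgeR).

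MiR-376c-3p was at 28.0, 23.2 and 22.6 normalized RPM in control and at 23.5, 20.9 and 16.6 in BDNF. The groups overlapped, and each pair was lower in BDNF. Its log2 fold change with the block was -0.28 (standard error 0.098, unadjusted P of 0.022, adjusted P = 0.173, edgeR), and the unadjusted P was 0.156 without it.

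MiR-329-3p belongs to the cluster members with a reported role in activity-dependent dendrite growth. It was at 179, 206 and 227 normalized RPM in control and at 179, 147 and 193 in BDNF. Only the pairs of replicates 2 and 3 differed, with ratios of 0.714 and 0.85 against 1.00 in replicate 1. The unadjusted P was 0.162 without and 0.040 with the block (adjusted P = 0.230, edgeR). The other arm, miR-329-5p, was more abundant and was level, at 457 ± 17.4 normalized RPM in control and 464 ± 21.8 in BDNF (SD, n = 3 each).

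Of the members with higher values, miR-376a-3p had the largest log2 fold change in the cluster, 0.50 without the block (standard error 0.34, unadjusted P of 0.180, edgeR). It was at 32.7, 19.5 and 18.2 normalized RPM in control and at 35.3, 43.8 and 20.6 in BDNF. The difference came mostly from replicate 2, whose ratio was 2.25, against 1.08 in replicate 1 and 1.13 in replicate 3. With the block the unadjusted P was 0.034 (adjusted P = 0.211). Without the block, the log2 fold change was 0.25 when BDNF replicate 2 was left out, 0.84 without control replicate 1 and 0.76 without BDNF replicate 3.

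MiR-668 was at 45.2, 47.0 and 58.9 normalized RPM in control and at 54.6, 52.6 and 64.4 in BDNF, with ratios of 1.21, 1.12 and 1.09. MiR-543-3p was at 594, 581 and 675 normalized RPM in control and at 636, 643 and 783 in BDNF, with ratios of 1.07, 1.11 and 1.16. Both were higher in each pair while the groups overlapped. In edgeR with the block, the unadjusted P was 0.0497 for miR-668 and 0.044 for miR-543-3p (adjusted P = 0.242 and 0.231), and without it 0.281 and 0.236.

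Libraries left out one at a time, without the block, moved the log2 fold change of each of these members but miR-410-3p by over 1.5 times and changed the sign of none of the 8. Nearest to 0 were miR-487b-3p at -0.17 without control replicate 3, miR-539-5p at -0.13 without BDNF replicate 1, miR-376c-3p at -0.14 without BDNF replicate 3 and miR-329-3p at -0.13 without BDNF replicate 2. Without BDNF replicate 3, miR-668 was at 0.090 and miR-543-3p at 0.053.

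**Figure D3:**
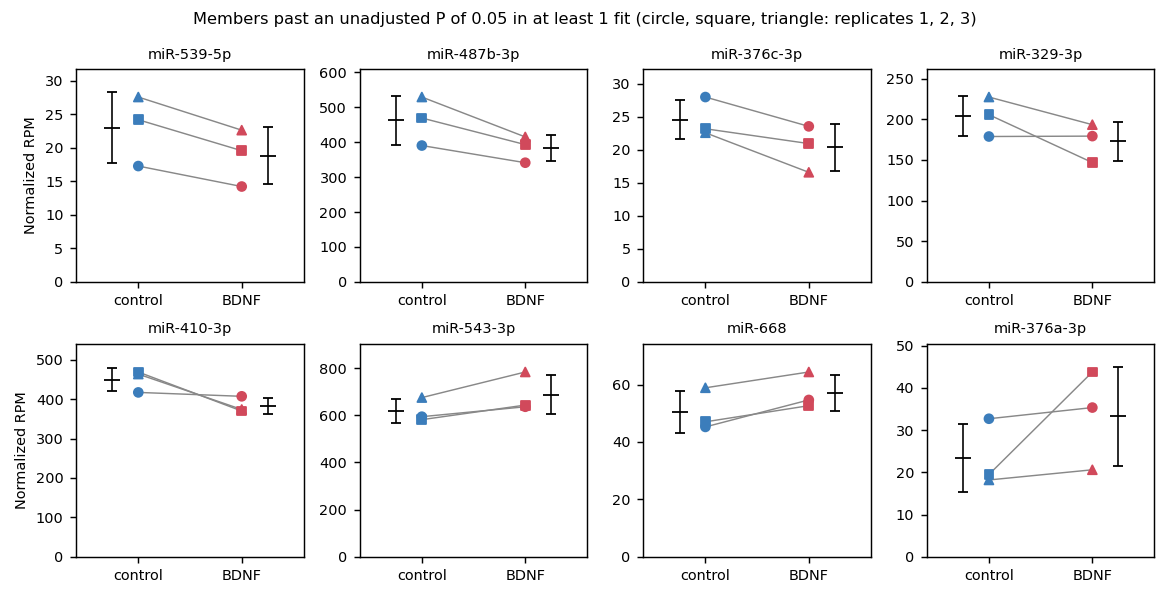
Normalized RPM of the 8 members with an unadjusted P below 0.05 in at least 1 fit, per library (circle, square and triangle for replicates 1, 2 and 3), with lines joining libraries of the same replicate number and black bars for mean and SD (n = 3). Only miR-410-3p has control and BDNF libraries that do not overlap, and the higher BDNF mean of miR-376a-3p comes mainly from replicate 2.

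The most abundant members did not pass the threshold in either fit. MiR-323-3p was at 2290 ± 233 normalized RPM in control and 2240 ± 156 in BDNF, and miR-379-5p at 2107 ± 144 and 2067 ± 306 (SD, n = 3 each). MiR-541-5p was at 1718 ± 180 and 1679 ± 121. These differences were smaller than the spread between replicates. MiR-300-3p was at 2238, 1821 and 1708 normalized RPM in control and at 2227, 2198 and 2004 in BDNF, with an unadjusted P of 0.253 without and of 0.058 with the block in edgeR. MiR-381-3p, which shares all but 1 of its bases with miR-300-3p, was at 1712, 1250 and 1245 normalized RPM in control and at 1526, 1471 and 1503 in BDNF (unadjusted P of 0.520 and 0.258). Both were higher in BDNF in replicates 2 and 3 and not in replicate 1. Without control replicate 1 their log2 fold changes were 0.31 and 0.29, with an unadjusted P of 0.019 and 0.013 in edgeR without the block.

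Further members were named for their place in the cluster or for known neuronal roles. MiR-485-5p, which represses the synaptic vesicle protein SV2A, was at 141, 138 and 153 normalized RPM in control and at 134.9, 136.3 and 126.7 in BDNF. Its groups did not overlap, but the log2 fold change was -0.12 (standard error 0.11, unadjusted P of 0.320 without and 0.184 with the block, edgeR). MiR-495 was at 370, 370 and 339 normalized RPM in control and at 365, 306 and 318 in BDNF (unadjusted P of 0.275 and 0.117). MiR-376b-3p was at 185, 181 and 157 normalized RPM in control and at 164, 174 and 147 in BDNF (unadjusted P of 0.422 and 0.172). Each of the 3 was lower in BDNF in all 3 pairs without passing the threshold.

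Read by pairs alone, 12 of the 42 members were lower in BDNF in all 3 pairs (28.6%, against 23.8% of all tested) and 3 were higher in all 3 (7.14%, against 16.1%). Groups that did not overlap were found for 3 members with lower values (7.14%, against 3.57%) and for 0 with higher values (0%, against 3.57%). The 3 were miR-410-3p, miR-485-5p and miR-496-3p. The last falls outside the rule for named members and was picked after its values were seen. It was at 40.4, 43.3 and 40.2 normalized RPM in control and at 37.6, 35.8 and 38.1 in BDNF. Its log2 fold change was -0.15 (standard error 0.11, unadjusted P of 0.213 without and 0.116 with the block, edgeR).

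The neighbouring miRNAs of the same imprinted region give a frame for these counts. The 9 listed arms of miR-127, miR-136, miR-431, miR-432, miR-433 and miR-434, which lie opposite Rtl1, were all tested and summed to 23558 ± 1637 normalized RPM in control and 24885 ± 1115 in BDNF (SD, n = 3 each). They had a median log2 fold change of 0.090, with 0 past the threshold in either direction without the block. With it, 1 was lower (11.1%, against 12.8% of all tested) and 1 higher (11.1%, against 7.74%). Of the 11 arms of miR-337, miR-493, miR-540, miR-665, miR-673 and miR-770, on the Meg3 side of the cluster, 9 were tested. They summed to 576 ± 31.6 normalized RPM in control and 616 ± 42.6 in BDNF and had a median log2 fold change of 0.095, with 0 lower in either fit. Higher values were called for 1 without the block (11.1%, against 1.49% of all tested) and for 3 with it (33.3%, against 7.74%). Whether the 3 groups of the region differ in their response was not tested.

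Levels also differed between replicate numbers. The range between the means of the 3 replicate numbers, on the log2 scale, had a median of 0.249 over the 42 members and of 0.341 over all 336 miRNAs. Replicate 3 was the highest for 20 members and the lowest for 15, and over all 336 miRNAs it was the highest for 143 and the lowest for 143. MiR-410-3p lay at the other end, with a range of 0.015. Each of these means takes the control and BDNF library of a number together. For miR-410-3p the 2 conditions ran in opposite directions, at 417, 469 and 464 normalized RPM in control and 407, 370 and 374 in BDNF. The small range therefore does not mean equal levels between replicates.

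MiR-382-3p had the widest range, 0.96. It was at 1061, 741 and 571 normalized RPM in control replicates 1 to 3 and at 1040, 742 and 508 in the BDNF replicates, so each BDNF library repeated its own control. The other arm of the same hairpin, miR-382-5p, was lowest in replicate 1 in both conditions, at 838, 913 and 1006 in control and 884, 968 and 904 in BDNF. MiR-369-3p, chosen after its values were seen, had the next widest range, 0.84, and was at 140, 123 and 78.8 normalized RPM in control and 126, 148 and 72.5 in BDNF. Of the 2 miRNAs looked up for astrocytes or reactive glia, miR-21-5p was lowest in replicate 3. It was at 7277, 6615 and 5571 RPM in control and 7480, 7033 and 5602 RPM in BDNF. The other, miR-143-3p, was lowest in replicate 2, at 103.1, 56.4 and 71.1 RPM in control and 98.3, 60.6 and 69.6 RPM in BDNF. Whether either miRNA is confined to these cells was not tested. Of the 4 neuronal miRNAs, miR-9a-5p was also lowest in replicate 3. It was at 301317, 307544 and 249572 RPM in control and 331060, 301705 and 282049 RPM in BDNF. MiR-138-5p was highest in replicate 3, at 271, 322 and 424 RPM in control and 228, 257 and 338 RPM in BDNF. MiR-128-3p was lowest in replicate 1 in both conditions, and miR-124-3p had no replicate that was lowest in both. The part of culture composition in these shifts was not tested.

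**Figure D4:**
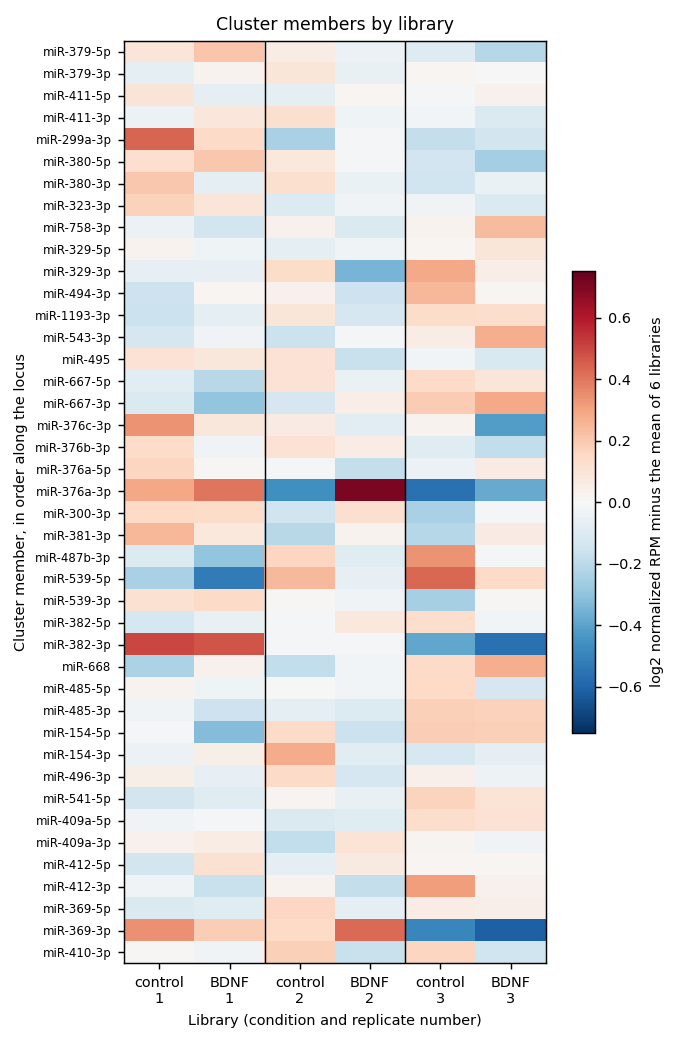
Log2 normalized RPM minus the mean of 6 libraries for the 42 members tested (rows, in order along the locus), with the control and BDNF library of each replicate number side by side. As deviations from the mean of their own condition, which is not the scale plotted, control and BDNF libraries went together for replicates 1 and 3. There r over members was 0.69 and 0.83, against -0.08 for replicate 2. MiR-382-3p ranges over 0.96 between replicate numbers.

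The last comparison concerns the choice of arm, which the study examined because TRBP, a partner of Dicer, had been linked to it. Both arms were listed for 31 hairpins of the cluster. Among the 23 with both arms at 1 RPM or more, the 3p arm was higher in all 6 libraries for 12, the 5p arm for 7, and 4 were mixed. The mixed hairpins were miR-369, miR-376a, miR-382 and miR-539. Of the tested members 26 were named as 3p arms and 14 as 5p arms.

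The log2 ratio of 5p to 3p counts spanned a wide range. It was lowest in control for miR-381, at -10.3 ± 0.67, miR-300, at -9.30 ± 0.23, and miR-323, at -8.77 ± 0.52 (SD, n = 3 each, among hairpins with both arms at 1 RPM). It was highest for miR-541, at 8.29 ± 0.17, miR-379, at 3.92 ± 0.14, and miR-412, at 2.49 ± 0.11. The minor arms of the first 4 had 1.10 RPM for miR-381-5p, 2.88 RPM for miR-300-5p, 5.56 RPM for miR-323-5p and 5.10 RPM for miR-541-3p, so their ratios rest on few reads.

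For the 13 hairpins with both arms tested, limma was fitted to the log2 ratio. Without the block 0 of 13 changed at an unadjusted P below 0.05, against 3.61% of all 83 hairpins with both arms tested. With the block 2 of 13 changed (15.4%), against 12% of all. After Benjamini-Hochberg adjustment 0 of 13 passed 0.05 in limma with or without the block. The share of all 83 hairpins that passed it was not counted, so this 0 does not set the cluster apart. The change in log2 ratio had a median of -0.062 in the cluster and -0.054 over all 83.

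MiR-412 was one of the 2, with log2 ratios of 2.54, 2.56 and 2.36 in control and of 2.93, 2.90 and 2.64 in BDNF, without overlap. The change toward the 5p arm was 0.34 in both fits of limma. The unadjusted P was 0.079 without the block (standard error 0.17) and 0.027 with it (standard error 0.12, adjusted P = 0.264). MiR-539 was the other, with ratios of -0.55, 0.035 and 0.48 in control and of -0.87, -0.24 and -0.058 in BDNF. Its change toward the 3p arm was -0.37 in both fits. The unadjusted P was 0.263 without the block (standard error 0.31) and 0.022 with it (standard error 0.13, adjusted P = 0.264). MiR-376a, picked after its values were seen, had a larger change, -0.56, but with an unadjusted P of 0.142 without and 0.056 with the block (limma), and its ratio in BDNF replicate 2 was -1.09, far below the 0.23 of replicate 3.

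**Figure D5:**
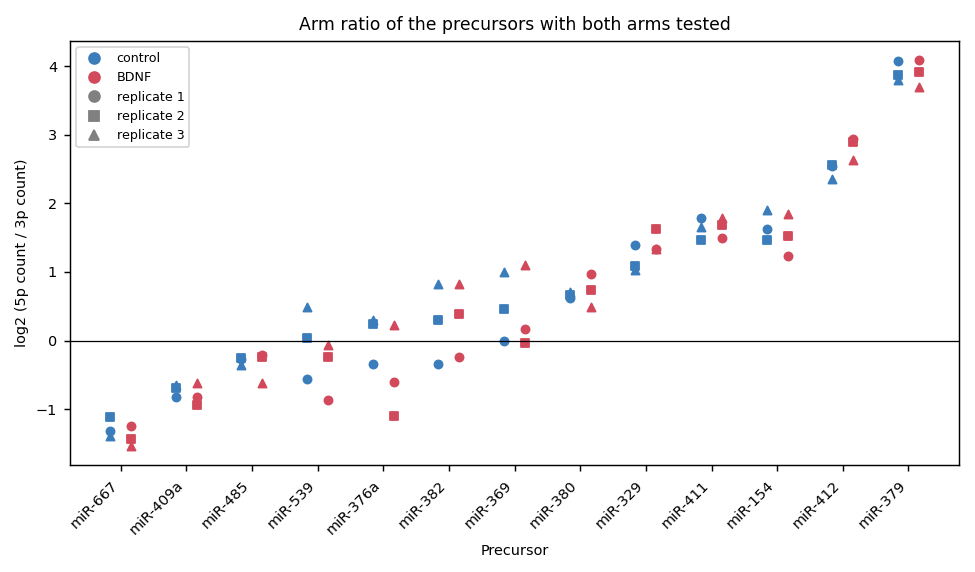
Log2 ratio of 5p to 3p counts for the 13 hairpins with both arms tested, per library, control in blue and BDNF in red, with circle, square and triangle for replicates 1, 2 and 3. MiR-382 and miR-369, both near 0, spread by about 1 unit between replicate numbers. MiR-485, also near 0, stays between -0.63 and -0.21 in all 6 libraries, and miR-379 between 3.69 and 4.09.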

How the data were processed

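Small RNA was sequenced from 3 control and 3 BDNF-treated cultures, grouped by the sample labels. The authors removed adapters, low-quality reads and reads under 15 nt, assigned the rest to rat mature miRNAs of miRBase v21 with Miraligner (1 mismatch allowed, up to 3 nt trimmed) and deposited raw read counts per mature miRNA. Tool versions and the treatment of reads with several matches are not given in the sources used here.

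From these counts RPM were computed with the sum of all counts of a library. Counts were fitted over the 336 miRNAs that averaged 10 RPM or more in 1 condition with edgeR 4.0.16 in R 4.3.3 (TMM, quasi-likelihood test). The standard error is the size of the log2 fold change divided by the square root of F. Arm ratios (log2, pseudocount 0.5) were fitted with limma 3.58.1. Both fits were also run on simulated counts. These held no differences between replicate numbers, and their arm counts varied by counting error only. That check therefore cannot show how the block or the arm fit behaves in these data. Alternatives were DESeq2 1.42.0, the replicate block, scaling by library size only or by upper quartiles, other filters and leaving out each library. P-values set the difference between conditions against the spread between these libraries, or, with the block, against the spread left after replicate numbers are accounted for. The count of a single library gives no measure of that spread. Both fits also draw the spread of each miRNA or hairpin toward a trend over all those fitted. A standard error or P-value therefore does not rest on the libraries of that miRNA alone, and groups without overlap can have a large P.

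The study's methods state no block, so the fit without one is the main one. Deviations from the group means went together in libraries that share a label number (r of 0.80, 0.48 and 0.89 over 336 miRNAs), so the numbers were taken as pairs. Over the 42 members r was 0.69, -0.08 and 0.83. Between libraries of different numbers it ran from -0.79 to 0.50 over the members, the highest for control 1 and BDNF 2. Within a condition, the libraries differed by more than sampling noise.

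The members, the lists and the tests were chosen with earlier results of these data known. Members named with values are the 15 most abundant, those with an unadjusted P below 0.05 in either fit, their opposite arms, and miR-485-5p and the arms of miR-329, miR-376a, miR-376b, miR-376c, miR-379, miR-381, miR-410 and miR-495. For arm ratios they are the 3 lowest and 3 highest hairpins and those past the threshold. Others named with values are said to be picked after their values were seen. Sequences and positions are from RefSeq (GRCr8), matched by name.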

Additional observations from a re-analysis of the deposited data

How the results depend on the processing

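The number of members with an unadjusted P below 0.05 and lower values in BDNF was 1 in the reported fit, 5 with the replicate block, 0 with library-size scaling, with upper-quartile normalization and with a filter of 100 RPM, and 0 to 2 when 1 library was left out (2 without control replicate 1). With higher values it was 0, 3 with the block, and 0 to 3 on leaving out 1 library (3 without control replicate 1, 1 without BDNF replicate 3). Over all tested miRNAs the lower count of 5 became 43 with the block, 2 with upper-quartile normalization, 8 without a filter, 1 at 100 RPM and 2 to 16 on leaving out 1 library. The higher count of 5 became 26 with the block, 2 with library-size scaling and 1 to 16 on leaving out 1 library. For arm ratios the count of 0 of 13 became 2 of 13 with the block, against 3.61% and 12% of all 83 hairpins. It was 0 to 2 on leaving out 1 library. With both arms at 1 RPM it was 1 of 23, and 4 of 23 with the block (added after seeing the data). The share over all 141 hairpins at 1 RPM was not counted, so the counts at 1 RPM have no background. The cause of these moves was not tested. The median log2 fold change of the members was -0.0050 with upper-quartile normalization and -0.068 to -0.028 on leaving out 1 library. The log2 ratio of the summed level stayed between -0.028 and 0.039 on leaving out 1 library.

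Of the log2 fold changes of the 26 tested members named by the rule, those that changed sign were all below 0.08 in size in the reported fit. With upper-quartile normalization they became 0.0012 for miR-323-3p, 0.0079 for miR-379-5p, 0.033 for miR-382-5p, 0.015 for miR-411-5p and 0.013 for miR-379-3p. With the 100 RPM filter they became 0.019 for miR-382-5p, 0.0050 for miR-411-5p and 0.0015 for miR-379-3p. MiR-382-5p was also at 0.0022 with the block, 0.013 in DESeq2 and 0.0049 without a filter, and miR-409a-5p at -0.020 with library-size scaling. On leaving out 1 library the ranges were -0.090 to 0.079 for miR-323-3p, -0.147 to 0.065 for miR-379-5p, -0.094 to 0.045 for miR-541-5p, -0.040 to 0.069 for miR-382-5p, -0.050 to 0.057 for miR-411-5p and -0.34 to 0.24 for miR-382-3p. They were -0.054 to 0.073 for miR-409a-5p, -0.017 to 0.068 for miR-329-5p, -0.037 to 0.022 for miR-379-3p, -0.092 to 0.016 for miR-411-3p, -0.121 to 0.021 for miR-376a-5p and -0.018 to 0.184 for miR-539-3p. Apart from the counts above, the replicate block changed no other call. Members below 1 RPM rest on too few reads for any comparison.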
